A study of Mus musculus with 65 samples.

Results

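Among 48 mouse mammary tumours profiled on Affymetrix oligonucleotide arrays, 8 stood highest in a score of basal epithelial genes and are described here against the other 40. The score of a tumour was the mean log2 value of Trp63, Krt5, Krt14 and Col17a1, each read from the probe set whose tumour mean was highest. The 8 were chosen by this score alone. All 48 tumours grew from p53-null BALB/c mammary fragments. The unirradiated fragments had been transplanted into inguinal fat pads of female BALB/c hosts, from which the host's own epithelium was removed at 3 weeks of age. Hosts were heterozygous or wild-type for Tgfb1, and were irradiated or sham-treated 3 days before transplantation. No source used here gives the host radiation dose, and the series also holds 17 mammary glands that were not used. The tumours comprised 10 from irradiated heterozygous hosts, 6 from sham heterozygous hosts, 23 from irradiated wild-type hosts and 9 from sham wild-type hosts. The transplanted epithelium lacked p53 in all of them, and the stroma of the fat pad is the host's own. The labels tell the groups apart by host genotype and host treatment. The number of donor animals is stated in no source used here. Tumours are named below by host and by the repeat number of the labels, and each is 1 array. For 1 tumour of the other 40 the title says irradiated and other labels say sham, and its title was followed.

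The mammary duct is a bilayer. Luminal cells line the cavity and can make milk proteins, and basal cells lie beneath them on the basement membrane. Most basal cells are myoepithelial: they carry keratins 5 and 14, contract through smooth-muscle actin and myosin, and are fixed to the basement membrane by hemidesmosomes. Their transcription factor p63, encoded by Trp63, is a relative of p53 that maintains basal cells of stratified and glandular epithelia. Krt5 and Krt14 encode the keratin pair of the basal layer, and Col17a1 encodes a transmembrane collagen of the hemidesmosome. Array values came from whole tumour pieces, so a higher value may reflect more cells of a kind or more RNA per cell, and these cannot be told apart.

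The promoters of 3 of the 4 score genes are shown because p63 and p53 bind sites built around the core CATG, here in capitals. Each run covers 300 bases around the annotated start, most of them upstream, on the minus strand of RefSeq assembly GRCm38.p6. Krt5 lies at chr15:101712856-101713155, Krt14 at chr11:100205981-100206280 and Col17a1 at chr19:47691993-47692292.
Krt5: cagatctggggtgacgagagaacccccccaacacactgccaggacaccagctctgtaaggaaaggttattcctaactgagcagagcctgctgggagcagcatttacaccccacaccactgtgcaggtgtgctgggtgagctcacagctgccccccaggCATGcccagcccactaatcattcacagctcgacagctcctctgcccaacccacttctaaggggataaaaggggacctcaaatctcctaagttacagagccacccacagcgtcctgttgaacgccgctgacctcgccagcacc
Krt14: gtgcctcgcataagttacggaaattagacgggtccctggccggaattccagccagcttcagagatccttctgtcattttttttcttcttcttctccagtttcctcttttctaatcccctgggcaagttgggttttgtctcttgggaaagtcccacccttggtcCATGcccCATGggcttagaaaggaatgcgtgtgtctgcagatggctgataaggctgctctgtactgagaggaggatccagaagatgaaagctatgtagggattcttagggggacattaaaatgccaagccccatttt
Col17a1: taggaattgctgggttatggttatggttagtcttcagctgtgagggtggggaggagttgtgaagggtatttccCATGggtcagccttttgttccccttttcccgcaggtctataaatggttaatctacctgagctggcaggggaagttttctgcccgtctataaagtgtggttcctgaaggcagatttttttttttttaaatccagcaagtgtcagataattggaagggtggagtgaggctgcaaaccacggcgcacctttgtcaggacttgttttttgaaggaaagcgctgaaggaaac
CATG was searched as written, and since it is its own reverse complement both strands were covered. It occurred 1 time in the Krt5 window, 2 times in Krt14 and 1 time in Col17a1. The same letters lay in 61.1% of all 32851 promoter windows of this length, which is a description and not a binding site.

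The score ran from 7.97 to 11.91 in the 8 tumours and from 5.09 to 7.89 in the other 40, whose median was 6.55. Sham heterozygous tumour 2 was highest at 11.91, followed by irradiated wild-type tumour 16 at 11.19 and sham heterozygous tumour 1 at 10.87. Irradiated wild-type tumour 3 scored 10.63, irradiated heterozygous tumour 9 scored 10.20 and sham heterozygous tumour 5 scored 9.69. The last 2 were irradiated wild-type tumour 20 at 8.88 and sham heterozygous tumour 4 at 7.97. The eighth score lay 0.92 below the seventh but only 0.08 above the ninth, which was sham wild-type tumour 9 at 7.89. The tenth was irradiated wild-type tumour 4 at 7.73. Thus 7 tumours formed a spread-out upper range, and the eighth adjoined the other 40.

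The 4 score genes chose the tumours, so their levels are given as a description and were not tested. Col17a1 averaged 9.72 ± 1.86 in the 8 and 4.93 ± 0.73 in the other 40 (SD), and 7 of the 8 lay above all 40. Krt5 averaged 10.07 ± 1.88 in the 8 and 6.49 ± 0.70 in the other 40, with 6 of the 8 above all 40. Trp63 averaged 9.49 ± 1.16 in the 8 and 6.08 ± 1.08 in the other 40, with 7 of the 8 above. Krt14 overlapped most, at 11.39 ± 1.24 in the 8 and 8.88 ± 1.79 in the other 40, with 2 of the 8 above all 40. The genes did not follow one order within the 8. Irradiated wild-type tumour 3 had the highest Trp63 of the 8 (10.69) and the highest Col17a1 (11.69) but the lowest Krt14 (9.96). Sham heterozygous tumour 2 had the highest Krt5 (12.89) and Krt14 (13.52). Sham heterozygous tumour 4 had 11.02 for Krt14, but 6.97 for Trp63, 7.25 for Krt5 and 6.63 for Col17a1. Other probe sets of the same genes gave differences of 1.32, 2.31 and 0.13 for Trp63 and of 2.52 and 0.92 for Krt14.

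**Figure D1:**
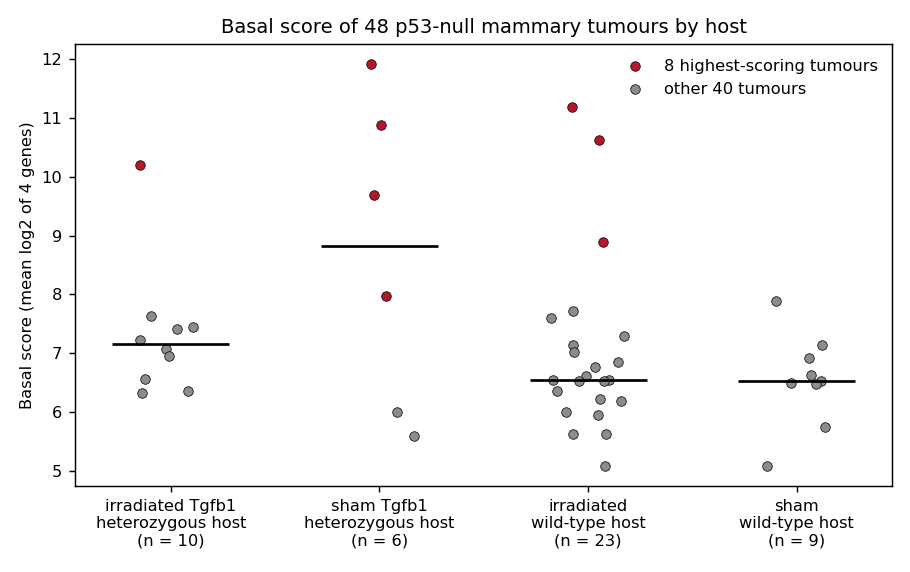
Basal score (vertical axis, mean log2 value of 4 genes) of each of the 48 tumours, by host group. Red points are the 8 highest, grey points the other 40, and bars are group medians. The sham heterozygous group holds 4 red points of 6 tumours and the sham wild-type group none of 9.

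The spread over hosts asked whether high-scoring tumours arose more often in one kind of host. The 8 made up 1 of 10 tumours of irradiated heterozygous hosts (10.0%), 4 of 6 of sham heterozygous hosts (66.7%), 3 of 23 of irradiated wild-type hosts (13.0%) and 0 of 9 of sham wild-type hosts. High-scoring tumours made up 5 of 16 tumours (31.2%) in heterozygous hosts and 3 of 32 (9.38%) in wild-type hosts, which a two-sided Fisher's exact test did not separate (p = 0.0968, adjusted p = 0.194 for 2 comparisons). They made up 4 of 33 tumours (12.1%) in irradiated hosts and 4 of 15 (26.7%) in sham hosts (Fisher's exact p = 0.236, adjusted 0.236). A test of all 4 host groups at once, chosen after the spread had been seen, gave an exact p of 0.0101 and so has no independent standing. Scores averaged 7.32 ± 1.11 (n = 10) in irradiated heterozygous hosts and 8.67 ± 2.58 (n = 6) in sham heterozygous hosts. They averaged 7.00 ± 1.47 (n = 23) in irradiated wild-type hosts and 6.55 ± 0.80 (n = 9) in sham wild-type hosts. The sham heterozygous group was the most divided, since its other 2 tumours scored 5.60 and 6.00. Tgfb1, for which part of the hosts were heterozygous, averaged 8.47 ± 0.38 in the 8 and 8.77 ± 0.68 in the other 40, a difference of -0.30 (SE 0.24, limma adjusted p = 0.688).

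Across all genes, the 8 tumours were compared with the other 40 with limma. Differences are in log2 units, 8 minus 40, with their standard error (SE), and the threshold was an adjusted p of 0.05. Because the groups came from values on the same arrays, a gene that passes is one associated with the score, and not one changed by a treatment. Of 12782 genes tested, 78 passed (0.61%), of which 68 were higher (0.532%) and 10 lower (0.0782%). An unadjusted p under 0.05 was reached by 1532 genes. In 0 genes (0.0%) did the groups fail to overlap, so no tested gene marked all 8 tumours off from all 40. Of the 68 higher genes, 8 had a mean in the 40 below the filter on dim genes (5.14): Irx4, Padi3, Gm266, Cited1, Rhbdl3, Upk3a, Kcnmb4 and Micalcl. They were tested only through the 8 tumours, so their direction was fixed in advance. Among all tested genes 34 had such a mean, and these 8 also passed with no filter. Their values are given as a description, and the other 60 stood above the filter in the 40 as well. The difference over all genes had a median of -0.0022. Single tumours moved these counts by over 1.5 times: without sham heterozygous tumour 4, whose score adjoined the 40, 172 genes were higher and 61 lower, and without irradiated wild-type tumour 20 there were 122 and 43. Without irradiated wild-type tumour 16 there were 35 and 3, without sham heterozygous tumour 1 there were 40 and 1, and without irradiated wild-type tumour 3 there were 41 and 1.

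**Figure D2:**
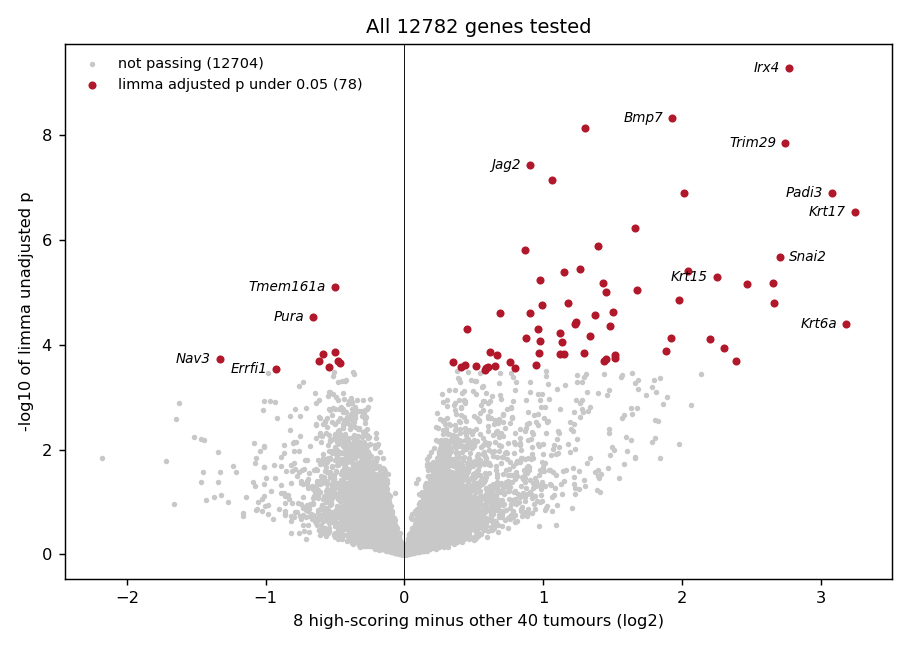
Each point is 1 of 12782 genes: horizontal axis, difference between the 8 high-scoring and the other 40 tumours (log2), vertical axis, -log10 of the unadjusted limma p. The 78 red points passed the adjusted threshold, 68 on the right (higher in the 8) and 10 on the left.

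Keratins other than those of the score led the genes that were higher. Krt17, a keratin of basal cells and skin appendages, ran from 8.08 to 12.02 in the 8 (median 10.28) and from 3.99 to 9.76 in the other 40 (median 6.83). All 8 lay above the median of the 40 and 5 above all 40, a difference of 3.25 (SE 0.55, limma adjusted p = 0.000419). Krt6a, a keratin of activated and wounded epidermis, reached 13.28 in sham heterozygous tumour 2 and was 8.15 to 11.11 in the other 7, against 4.20 to 11.98 in the 40 (difference 3.19, SE 0.71, limma adjusted p = 0.0143). Krt15, a keratin of basal and hair-bulge cells, reached 11.14 in irradiated wild-type tumour 16. It was lowest of the 8, at 5.94, in sham heterozygous tumour 4, against a median of 5.48 in the 40 (difference 2.25, SE 0.44, limma adjusted p = 0.00385). Padi3, an enzyme that converts arginine to citrulline in hair and epidermal proteins, was split within the 8. It lay between 9.06 and 10.53 in 4 tumours and between 5.35 and 7.77 in the other 4, and 1 tumour of the 40 reached 11.37 (difference 3.09, SE 0.50). Its mean of 5.10 in the 40 was under the filter, so it entered the comparison through the 8.

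Snai2, which encodes Slug, a repressor active in mammary basal cells, ran from 8.06 to 12.37 in the 8 (median 11.18) and from 6.27 to 11.67 in the other 40 (median 7.66). It differed by 2.71 (SE 0.50, limma adjusted p = 0.00204), with 3 of the 8 above all 40. Irx4, an Iroquois homeobox gene that entered the comparison through the 8 (mean of the 40, 4.72), stood at 8.90 to 9.76 in 4 tumours, 6.76 in sham heterozygous tumour 2 and 6.82 in sham heterozygous tumour 5. In irradiated wild-type tumour 20 and sham heterozygous tumour 4 it was 4.67 and 4.76, close to the median of 4.57 in the 40 (difference 2.77, SE 0.36). Lmo1, which encodes a LIM-domain cofactor, had a median of 8.25 in the 8 and 6.15 in the 40 (difference 2.04, SE 0.39, limma adjusted p = 0.0032). Trim29, a tripartite-motif protein of basal epithelia, had the most high-scoring tumours beyond the 40: 6 of the 8 lay at 9.47 to 11.16, above the highest of the 40 at 9.32. The other 2, irradiated wild-type tumour 20 (6.43) and sham heterozygous tumour 4 (6.04), lay at the level of the 40, whose median was 6.33 (difference 2.75, SE 0.40, limma adjusted p = 4.45e-05).

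**Figure D3:**
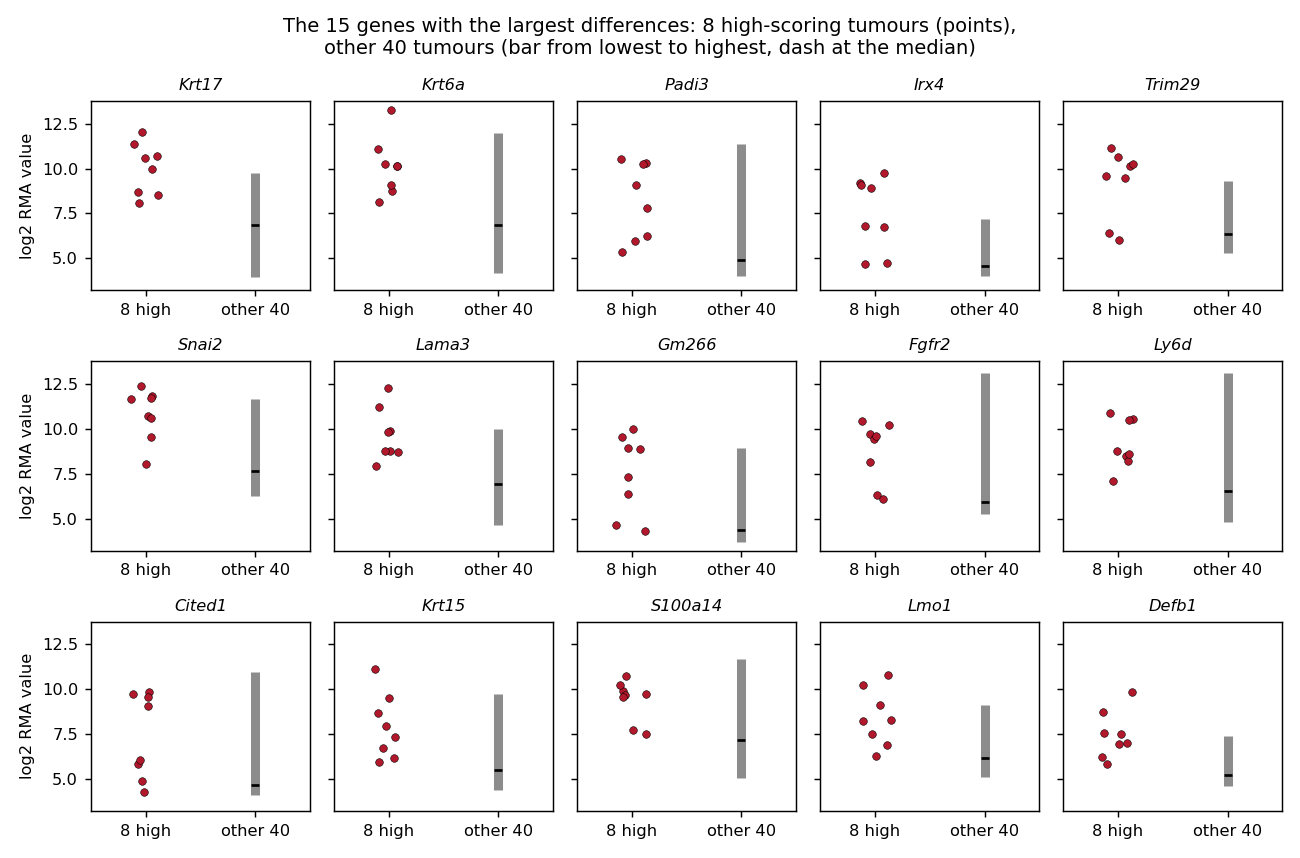
The 15 genes with the largest positive differences among those passing, 1 panel each: red points are the 8 high-scoring tumours, grey bars the range and black dashes the median of the other 40 (vertical axis, log2 RMA value). In Trim29, Irx4 and Fgfr2 the lowest 2 red points sit at the level of the dash.

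Genes of adhesion to the basement membrane followed in part. Lama3, the alpha chain of the laminin to which hemidesmosomes bind, ran from 7.90 to 12.28 in the 8 (median 9.30) and from 4.63 to 9.97 in the 40 (median 6.90), a difference of 2.67 (SE 0.56, limma adjusted p = 0.00754). Col7a1, the collagen of anchoring fibrils, had a median of 10.67 in the 8 and 8.97 in the 40 (difference 1.44, SE 0.36, limma adjusted p = 0.0411). It passed in only 2 of the 8 fits that left out one of these tumours. The hemidesmosome and basement membrane list had 13 tested members, of which these 2 passed and 8 lay above 0. The integrin pair of the hemidesmosome did not pass: Itga6 had a median of 11.60 in the 8 and 11.44 in the 40, and Itgb4 10.36 and 10.17. The list's median difference was 0.30, against -0.0022 over all genes. The desmosome list had 10 tested members, of which 9 lay above 0, 1 below and 0 passed (median 0.33). Over all genes tested 0.61% passed. Its member with the smallest p was Perp, above all 40 in 5 of the 8 (difference 1.86, limma adjusted p = 0.0876).

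The basal identity list, which does not contain the score genes, had 12 tested members, all with a difference above 0 and 5 of them passing (median 1.22). Over all genes tested, 6334 of 12782 lay above 0 and 0.532% passed as higher. The 5 were Krt17, Snai2, Krt15, Cdh3 and Jag2. Cdh3, the P-cadherin of basal cells, ran from 6.53 to 9.43 in the 8 and from 5.67 to 8.15 in the 40 (difference 1.18, SE 0.25, limma adjusted p = 0.00754). Jag2, a Notch ligand, ran from 7.45 to 9.44 in the 8 and from 6.74 to 8.24 in the 40 (difference 0.90, SE 0.14). Members that did not pass included Sfn, the epithelial 14-3-3 protein (1.31), Bnc1, a zinc-finger protein of basal keratinocytes (1.78), and Egfr (0.53). The mean of the list lay above all 40 in 6 of the 8 tumours, between 8.05 and 9.37. In irradiated wild-type tumour 20 it was 7.84 and in sham heterozygous tumour 4 it was 7.63, just under the highest of the 40 at 7.86.

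Contractile genes of myoepithelium were higher in some of the 8 and not in others. Of 10 tested members, 9 lay above 0 and 1 passed, with a median of 1.43. The one was Mylk, the kinase that activates smooth-muscle myosin, at 8.09 to 10.97 in the 8 and 7.10 to 10.47 in the 40 (difference 1.12, SE 0.27, limma adjusted p = 0.0345), and it passed in 4 of the 8 fits without one tumour. Acta2, smooth-muscle actin, was 12.86 to 13.73 in the 5 highest-scoring tumours, 11.98 in sham heterozygous tumour 5, and 9.97 and 11.07 in the last 2, against a median of 10.84 in the 40 (difference 1.46, limma adjusted p = 0.0764). Cnn1, calponin of smooth muscle, was 10.60, 11.62 and 10.73 in sham heterozygous tumour 2, irradiated wild-type tumour 3 and irradiated heterozygous tumour 9, and 5.00 to 6.81 in the other 5. Its median in the 40 was 5.48. The mean of the list exceeded all 40 in 4 tumours: 11.21 in irradiated heterozygous tumour 9, 10.71 in irradiated wild-type tumour 3, 10.46 in sham heterozygous tumour 2 and 10.05 in irradiated wild-type tumour 16. The highest of the 40 was 9.98. Skeletal muscle genes were also high in irradiated heterozygous tumour 9, with a list mean of 9.61, against 4.98 to 6.96 in the other 7 high-scoring tumours and a median of 5.06 in the 40. The same muscle list was at 5.08 in irradiated wild-type tumour 3, whose contractile mean was 10.71. What part skeletal muscle has in the contractile genes of either tumour was not tested.

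Squamous differentiation, the program of stratified skin, stood out most in 1 tumour. Of 23 listed genes 11 were bright enough to test, 9 lay above 0 and only Krt6a passed (median 0.53). The list mean was 7.23 in sham heterozygous tumour 2 and 6.40 in sham heterozygous tumour 5, both above all 40, whose highest was 6.29, and 5.31 to 5.68 in the other 6. In sham heterozygous tumour 2, Krt6b was 12.20 and Krt16 11.02, keratins of hyperproliferative epidermis, against medians of 5.13 and 4.43 in the 40. Krt1, a keratin of the suprabasal epidermis, was 6.93 there and at most 4.58 in the 40. Krtdap was 9.65, Sprr1b, a precursor of the cornified envelope, was 7.57, and Spink5, a protease inhibitor of skin, was 7.84, against highest values of 7.19, 6.72 and 4.89 in the 40. These genes were named after their values were seen. Of the 23 listed genes, 11 to 15 lay above the median of the 40 in the other 6 tumours. In sham heterozygous tumour 5, 20 did so and 3 lay above all 40. In sham heterozygous tumour 2, 20 did so as well and 9 lay above all 40. Among the others, Ivl, the involucrin gene, was 4.72 (median of the 40, 4.74), Krt13 was 3.66 (3.95) and Tgm3 was 4.92 (5.19), and Sprr1a was 9.33 where the 40 reached 13.99. Calml3, a calmodulin-like protein of keratinocytes, was above all 40 in 4 of the 8 (difference 1.57) but did not pass (limma adjusted p = 0.0506).

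**Figure D4:**
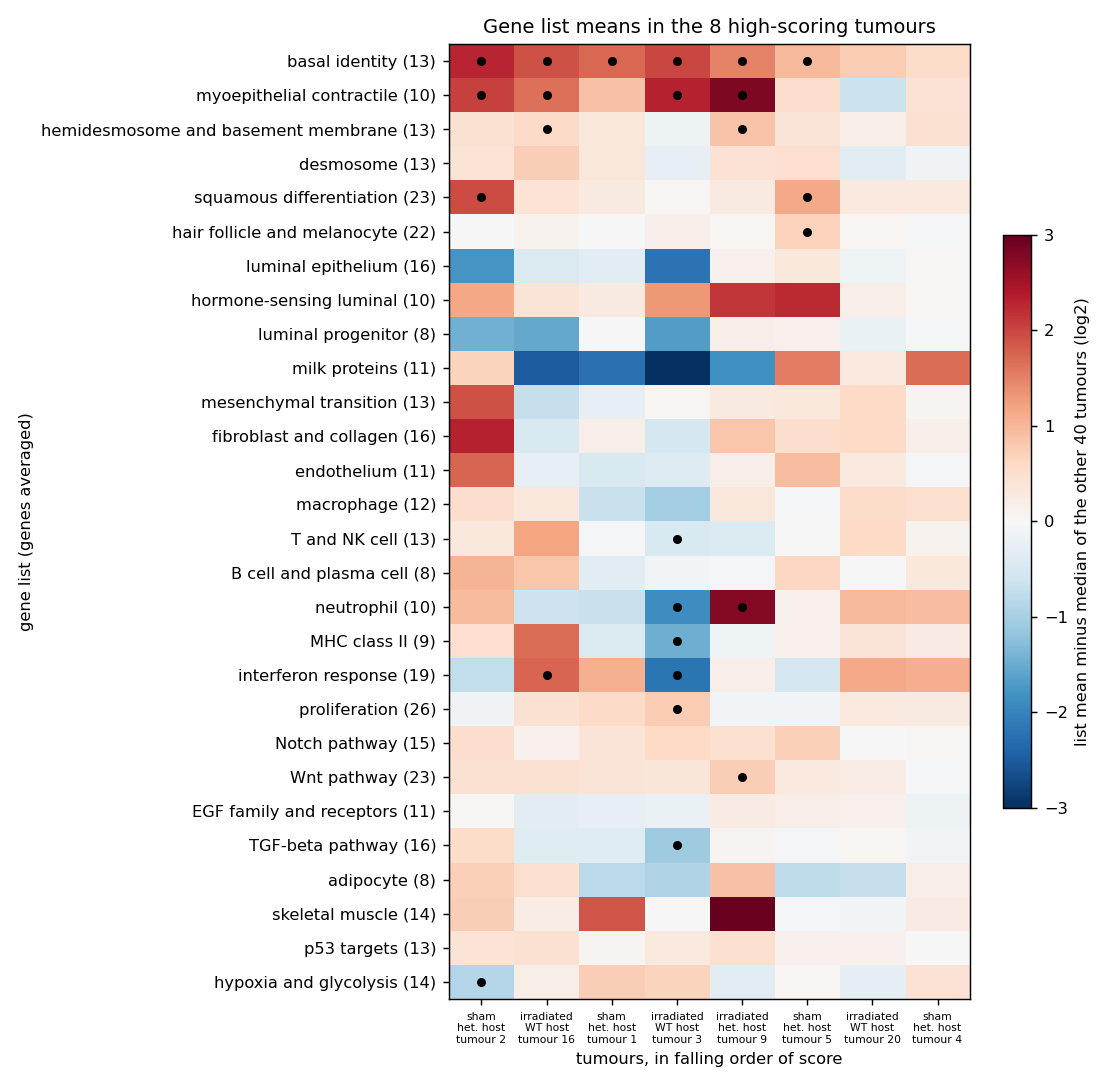
Mean of each gene list in the 8 high-scoring tumours (columns, highest score at the left), as the difference from the median of the other 40 (colour, log2, capped at 3 on either side). A black dot marks a tumour outside the whole range of the 40. The basal identity row holds 6 dots and the luminal row none.

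No member of the luminal epithelial list passed in either direction. Of its 16 tested members 0 had an unadjusted p under 0.05, with a median difference of 0.05. Over all 12782 genes tested 0.61% passed, so 0 passing in a list this short is near the share of all genes. An unadjusted p under 0.05 was reached by 1532 of all genes. The same shares apply to the lists below. Krt8, a luminal keratin, had a median of 13.34 in the 8 and 13.32 in the 40, and differed by 0.24 with a 95% interval of -0.71 to 1.18. Epcam, an adhesion molecule of epithelia, had medians of 13.33 in the 8 and 13.45 in the 40. The luminal list mean lay between 10.88 and 11.64 in 6 of the 8, near the median of 11.31 in the 40. It was 9.55 in sham heterozygous tumour 2 and 9.10 in irradiated wild-type tumour 3.

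Milk protein genes varied over a wide range in both groups. All 10 tested members had differences below 0 (median -0.71), but 0 passed and 0 had an unadjusted p under 0.05. The list mean was 9.42 to 10.82 in sham heterozygous tumours 2, 5 and 4 and irradiated wild-type tumour 20. It was 6.01 to 7.29 in the other 4, against 5.83 to 12.16 in the 40. Genes of hormone-sensing luminal cells had 6 of 9 tested members above 0 (median 1.09) and 1 passing. That was Cited1, a coregulator expressed in hormone-sensing luminal cells, at 9.04 to 9.81 in 4 of the 8 and 4.28 to 6.05 in the other 4, against a median of 4.67 and a highest value of 10.97 in the 40 (difference 2.30, SE 0.55). It entered the comparison through the 8 (mean of the 40, 5.09), so its direction was fixed in advance and its values are a description. It passed in 4 of the 8 fits without one tumour. No other tested member of the list passed. Pgr, the progesterone receptor, reached 10.49 in sham heterozygous tumour 5 but differed by 1.42 without passing. Luminal progenitor genes had 0 of 8 passing (median -0.12).

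Among growth factor and signalling genes, Fgfr2, a receptor needed in mammary bud development, was 8.17 to 10.44 in 6 of the 8, and 6.34 and 6.07 in irradiated wild-type tumour 20 and sham heterozygous tumour 4. Its median in the 40 was 5.92, although 1 of them reached 13.09 (difference 2.47, SE 0.49, limma adjusted p = 0.00421). The Wnt list had 20 tested members, 14 above 0 and 1 passing (median 0.28). The one was Wnt6, a secreted ligand, at 9.77 in irradiated wild-type tumour 3 and 5.92 in irradiated wild-type tumour 20, against 5.53 to 7.03 in the 40 (difference 1.27, SE 0.24, limma adjusted p = 0.0032). Wnt10a, another ligand, was 9.36 to 11.09 in 4 of the 8 and 6.16 to 7.19 in the other 4, and missed the threshold (difference 1.81, limma adjusted p = 0.0742). Notch pathway genes had 0 of 13 passing (median 0.22), TGF-beta pathway genes 0 of 16 (median -0.22) and proliferation genes 0 of 26, although 25 of the 26 lay above 0 (median 0.26). Of 12 p53 target genes 1 passed, Phlda3, an inhibitor of Akt, at 8.81 to 11.23 in the 8 and 7.49 to 10.46 in the 40 (difference 1.15, SE 0.28, limma adjusted p = 0.0345). Phlda3 passed in 3 of the 8 fits that left out one high-scoring tumour. Trp53 itself was not analysed here.

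The remaining genes of the 15 largest differences were Ly6d, a surface protein of epithelia (difference 2.39), S100a14, a calcium-binding protein (2.20), Defb1, an epithelial defensin (2.02), and Gm266 (2.65), whose mean of 4.85 in the 40 lay under the filter. Ly6d passed in only 2 of the 8 fits without one tumour, and S100a14 in 4. The 53 genes higher beyond these 15 had smaller differences, among them Bmp7, a secreted bone morphogenetic protein (1.93, SE 0.27), and Fst, which encodes the activin antagonist follistatin (1.52, SE 0.37), both chosen after their values were seen. Bmp7 was above all 40 in 5 of the 8.

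The 68 higher genes were not evenly carried by the 8 tumours. They were called on these same tumours, so the counts that follow are a description. No such count was taken over all tested genes. Irradiated wild-type tumour 16 lay above all 40 in 39 of them, sham heterozygous tumour 1 and irradiated wild-type tumour 3 in 35 each, irradiated heterozygous tumour 9 in 23 and sham heterozygous tumour 2 in 21. Sham heterozygous tumour 5 did so in 9, and irradiated wild-type tumour 20 and sham heterozygous tumour 4 in 2 each. The tumour with the highest score was therefore not the one with the most of these 68 genes above all 40. By gene, 7 of the 68 had no high-scoring tumour above all 40, 46 had 1 to 3, 14 had 4 or 5, and 1, Trim29, had 6.

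Of the 10 genes that were lower, 7 lie on mouse chromosome 8: Tmem161a, Dda1, Sin3b, Tmem208, Gabarapl2, Trappc2l and Tcf25, in that order along it. Chromosome 8 held 684 of the 12728 tested genes with a known chromosome (5.37%), by RefSeq assembly GRCm38.p6. Their differences were small, from -0.47 (Trappc2l, SE 0.12, limma adjusted p = 0.0429) to -0.62 (Dda1, SE 0.15, limma adjusted p = 0.0411). Tmem161a, a membrane protein, had the smallest p among them, at 7.84 to 8.69 in the 8 and 8.30 to 9.35 in the 40, and all 8 lay below the median of the 40 at 8.86 (difference -0.50, SE 0.10, limma adjusted p = 0.00451). Sin3b, a scaffold of histone deacetylase complexes, was 9.86 to 10.35 in 6 of the 8, but 11.17 and 10.91 in irradiated wild-type tumour 20 and sham heterozygous tumour 4, against a median of 10.88 in the 40. Of these 7 genes, Tmem161a passed in all 8 fits that left out one high-scoring tumour and the others in 2 to 4.

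The shift extended over most of that chromosome. Of its 684 tested genes, 533 (77.9%) had a difference below 0, against 50.4% of all genes, and the median was -0.20, the lowest of the 20 chromosomes compared. Within a tumour, the shift was taken as the median over genes of the difference from the median of the 40, less the same median over all genes. In the last 3 of 4 equal blocks of genes along the chromosome (513 genes), it was -0.58 in sham heterozygous tumour 1, -0.56 in irradiated wild-type tumour 16, -0.45 in sham heterozygous tumour 5, -0.43 in irradiated wild-type tumour 3 and -0.26 in irradiated heterozygous tumour 9. It was 0.01 in sham heterozygous tumour 2, 0.17 in irradiated wild-type tumour 20 and 0.0027 in sham heterozygous tumour 4. A shift below -0.2 thus occurred in 5 of the 8 (62.5%) and in 4 of the 40 (10.0%), whose values ran from -0.59 to 0.28 with a median of 0.0079. In the first block the same 5 tumours ranged from -0.40 to 0.39. This pattern was looked for after the genes had been seen and was not tested, and DNA copy number was not analysed here. The higher genes Defb1, Lzts1 and Cdh3 lie on the same chromosome. Among the 20 chromosomes compared, chromosome 4 had the highest median difference, at 0.11. It held 11 of the 68 higher genes and 1 of the 10 lower, with 6.19% of the tested genes, which was not tested.

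**Figure D5:**
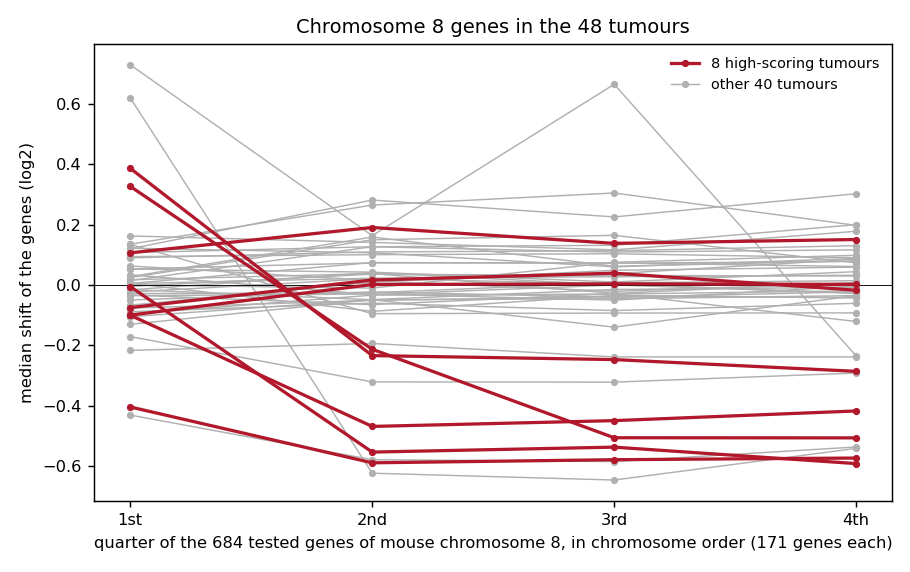
Median shift (vertical axis, log2) of the 684 tested genes of mouse chromosome 8 in 4 blocks of 171 genes in chromosome order (horizontal axis). Each line is 1 tumour, red for the 8 high-scoring and grey for the other 40. In the last 3 blocks 5 red lines lie below -0.2.

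The other 3 lower genes were Nav3, Errfi1 and Pura. Nav3, a neuron navigator protein, was 4.96 to 6.99 in 3 of the 8, below all 40, and 7.82 to 9.61 in the other 5, against 7.26 to 10.04 in the 40 (difference -1.33, SE 0.33, limma adjusted p = 0.0392). Errfi1, a feedback inhibitor of the EGF receptor, was 9.96 to 12.77 in the 8 and 11.07 to 13.14 in the 40 (difference -0.92, SE 0.24, limma adjusted p = 0.0471). It was the 1 passing member of 8 tested genes of the EGF family and receptors, whose median was -0.15. Pura, a nucleic acid binding protein, was 8.32 to 10.10 in the 8 and 9.62 to 10.73 in the 40 (difference -0.66, SE 0.14, limma adjusted p = 0.0113). Nav3 passed in 4, Errfi1 in 3 and Pura in 5 of the 8 fits without one tumour.

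Markers of cells other than epithelium did not pass in any list. This held for 16 fibroblast and collagen genes (median 0.06), 11 endothelial (0.07), 12 macrophage (-0.08), 10 T and NK cell (0.01), 3 B cell and plasma cell (0.09), 6 neutrophil (0.14) and 7 adipocyte genes (-0.24). It held as well for 13 mesenchymal transition genes (0.02) and 19 interferon response genes (0.10). Over all genes tested 0.61% passed, so 0 in lists this short is near the share of all genes. Single tumours lay near or beyond the ends of the range of the 40. Sham heterozygous tumour 2 had a fibroblast and collagen list mean of 12.37, against 9.53 to 10.88 in the other 7 high-scoring tumours and 8.77 to 12.42 in the 40 (median 10.05), so it lay inside their range. Irradiated wild-type tumour 3 had an interferon list mean of 7.48, below all 40 (7.76 to 11.39), and irradiated wild-type tumour 16 one of 11.42, above all 40. Irradiated wild-type tumour 3 was also below all 40 in the neutrophil (5.24, lowest of the 40 5.71) and MHC class II lists (7.25, 7.44). The same held for the TGF-beta pathway (8.78, 9.16) and, narrowly, T and NK cell lists (4.88, 4.89). Its macrophage (8.75) and B cell and plasma cell (5.19) means lay inside the range of the 40. Irradiated heterozygous tumour 9 had the highest neutrophil list mean of the 48, at 9.88. Hair follicle and melanocyte genes, markers of skin appendages, had 0 of 7 tested members passing, and their list mean was 4.43 to 5.19 in the 8 and 4.25 to 5.19 in the 40. With the 6 tumours of sham heterozygous hosts left out, an alternative chosen after the data were seen, 54 genes were higher and 9 lower, of which 35 were among the 68 and 3 among the 10.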

How the data were processed

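The authors deposited tumour values as log2 values per probe set, and the submitters' processing notes name RMA, a method of background correction, normalization and probe summary. No source used here gives its version. Per the labels, 100 ng of RNA was labelled. Gland values, deposited by the authors as intensity on a linear scale, were not used.

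Of 45101 probe sets, 34958 had 1 gene in the platform annotation and were used, 932 had several and 9211 none. Each of 18194 genes was read from its probe set with the highest tumour mean. Genes under the 40th percentile (5.14) and the 4 score genes were left out, which left 12782. Array medians were 5.84 to 5.96, and the number of arrays limits the precision. The 8 tumours were set against the other 40 in R 4.3.3 with limma 3.58.1 (empirical Bayes with a variance trend, two-sided, Benjamini-Hochberg over all tested genes, threshold 0.05). In simulated arrays of this design with 12782 genes, changes of 1.5-fold were recovered in 53.7% of cases. Changes of 2-fold were recovered in 80.6% and of 4-fold in 98.5%, with 8 false calls. Whether these shares hold for genes that were uneven within the 8, as Cnn1 and Trim29 were, was not tested. Cnn1 differed by 2.07 and did not pass (limma adjusted p = 0.0934), whereas Trim29 differed by 2.75 and passed. Host spread was tested with Fisher's exact test. Same-numbered tumours of different host groups did not deviate together (32 pairs, correlation -0.432 to 0.632, median 0.0451), so numbers were not taken as pairs.

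The naming rule took the 15 higher and 10 lower genes with the largest differences among those passing, up to 4 passing members of each list, the score genes and Tgfb1. Where no member of a list passed, it took the member with the smallest p, and only some of these members are described above. Genes outside the rule are named as examples, or where a single tumour or a small count called for it. The tumours, the 28 gene lists and the tests were chosen with earlier results of these data known. Alternatives covered the filter, normalization, probe sets, covariates, tumours left out and the score. Gene symbols were looked up in a RefSeq table of GRCm38.p6, where 99.4% of identifiers matched and 0 symbols changed. The same table gave chromosomes and gene order.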

Additional observations from a re-analysis of the deposited data

Results flagged for a closer look

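In 83 groups of values examined, 9 had a single tumour far from the rest by Dixon's test at the 95% level, where chance flags about 1 group in 20. Irradiated wild-type tumour 3 stood apart within the 8 in 3 genes. Lfng, a glycosyltransferase that modifies Notch receptors, was 9.44 there and 7.52 to 8.39 in the other 7. Cdk1, the mitotic kinase, was 13.30 there and 10.52 to 11.39 in the other 7, and at most 11.47 in the 40. Cd14, a luminal progenitor and myeloid surface protein, was 8.05 there and 10.42 to 12.55 in the other 7, and at least 8.99 in the 40.

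H2-Oa, a chaperone subunit of MHC class II loading, was 9.09 in irradiated wild-type tumour 16 and 4.72 to 5.41 in the other 7. Tek, an endothelial receptor, was 8.69 in sham heterozygous tumour 2 and 4.78 to 6.52 in the other 7. Krt31, a hair keratin, was 6.33 in sham heterozygous tumour 5 and 5.16 to 5.65 in the other 7. The hair follicle and melanocyte list mean was 5.19 in the same tumour and 4.43 to 4.65 in the other 7. Of the 22 listed genes 16 lay above the median of the 40 there, 4 above all 40 and 1, Foxn1, below all 40. The skeletal muscle list mean was 9.61 in irradiated heterozygous tumour 9. Among the 10 tumours of irradiated heterozygous hosts, the same tumour had the outlying basal score, 10.20, and the other 9 ran from 6.33 to 7.63.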

How the results depend on the processing

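Genes taken by the naming rule, described above or not, were followed under other settings. Of their values, 1160 kept their direction and their side of the threshold, 182 kept the direction but no longer passed, 13 newly passed and 4 changed sign. Those 4 had not passed: Tgfb1 was 0.0048 with host group as a covariate, Krt19 -0.15 in irradiated wild-type hosts only, Fcgr1 0.0216 and H2-Oa -0.2264 where one tumour was left out (ranges over the 8 such fits: Fcgr1 -0.3817 to 0.0216, H2-Oa -0.2264 to 0.3977). The 1160 include genes that did not pass in the main fit and stayed so, whereas all 182 losses fell on genes that had passed. Krt17 passed in all 8 fits that left out one high-scoring tumour and in all 19 other settings. Ly6d passed in 2 of these 8 fits and in 11 of the 19 other settings, and Tmem208 in 3 and 10. The counts of passing genes moved far more, and the cause was not tested. Main counts were 68 higher and 10 lower. Without the filter on dim genes 140 were higher, and over the 60th percentile 15 were higher and 2 lower. Quantile normalization gave 16 lower, 9 of them among the 10, and the host group covariate 16 lower, 3 of them among the 10, and 67 higher, 50 of them among the 68. An epithelial score as covariate gave 199 higher and 80 lower. With the repeat number as a replicate block 43 were higher, 37 of them shared with the 68, and 15 lower, 1 of them shared with the 10. Within irradiated wild-type hosts 36 were higher, and without the tumour of conflicting labels 4 were lower. Leaving out one of the 8 gave 35 to 172 higher and 1 to 61 lower. A score without Krt14 kept 7 of the 8 tumours and gave 220 higher and 97 lower, and one without Col17a1 kept 7 and gave 19 lower. The score as a continuous measure gave 293 higher and 191 lower. The 6 highest tumours gave 274 and 192, and the 7 highest, chosen after the data were seen, gave 177 and 69. The 10 highest gave 36 higher and 0 lower in limma, where 482 lower genes had an unadjusted p under 0.05. Neither host comparison passed under any setting run. Signal over background was not given per probe, so the filter was the only guard against dim genes.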
